A study of Mus musculus with 2 samples.

Results

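The genes described here are those of cholesterol synthesis, of its control by the transcription factor SREBP2, and of sterol uptake, storage and export, in mouse extraembryonic endoderm stem (XEN) cells. They were chosen by name, with earlier results of these data known: of 33 symbols, 32 were found in the deposited expression table of 26127 genes, and the expression of Hmgcs1, which encodes HMG-CoA synthase, is not analysed here. The 32 genes fall into a mevalonate arm of 8, a sterol arm of 11, 6 regulators and 7 genes of uptake and export. XEN cells are derived from, and model, the primitive endoderm, a layer of the blastocyst that forms the yolk sac linings. Total RNA of a single line, the female PS10 line of ICR strain, was sequenced after transfection, with Lipofectamine RNAiMax, of a locked nucleic acid (LNA) against Gata6-AS, an antisense RNA made beside the endoderm gene Gata6, or of an LNA serving as control. Both groups thus carry an LNA and the lipid reagent, and there was 1 library in each. The titles call the reagents siRNA, and the dose and the time after transfection are not given in the labels. A difference below is between these 2 libraries; it has no replicate check and carries no p-value of its own.

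Cells make cholesterol from acetyl-CoA. The mevalonate arm builds isoprenoid units and joins them into farnesyl diphosphate and squalene, and the sterol arm closes squalene into lanosterol and trims that into cholesterol. When membranes of the endoplasmic reticulum are poor in sterol, the escort protein SCAP carries SREBP2 to the Golgi, where a pair of proteases frees its transcription factor domain, which raises transcription of the enzyme genes. When sterol is plentiful, INSIG proteins hold SCAP back, and oxysterols activate the LXR receptors, which raise export.

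The promoter sequences of 5 members are shown first so that they can be read for the short elements through which SREBP2 and its partners are known to act. They are the 3 members with a window whose plain ratio of RPKM below was at least 2-fold (Idi1, Sc4mol and Lss), the gene of SREBP2 itself (Srebf2), and Insig1, a regulator that lay on the other side of 0. Each runs 5′ to 3′ on the gene's strand, from 250 bases before to 50 bases after the start annotated by RefSeq in GRCm38.p6. Capitals mark the letters TCACNCC (a sterol regulatory element core), CCAAT (the NF-Y box) and GGGCGG (the GC box bound by Sp1), searched on both strands, so that CCAAT also appears as ATTGG and GGGCGG as CCGCCC. The windows are chr13:8885356-8885655 on the plus strand for Idi1, chr8:64733529-64733828 on the minus strand for Sc4mol, chr10:76531355-76531654 on the plus strand for Lss, chr15:82147019-82147318 on the plus strand for Srebf2 and chr5:28071162-28071461 on the plus strand for Insig1.
Idi1: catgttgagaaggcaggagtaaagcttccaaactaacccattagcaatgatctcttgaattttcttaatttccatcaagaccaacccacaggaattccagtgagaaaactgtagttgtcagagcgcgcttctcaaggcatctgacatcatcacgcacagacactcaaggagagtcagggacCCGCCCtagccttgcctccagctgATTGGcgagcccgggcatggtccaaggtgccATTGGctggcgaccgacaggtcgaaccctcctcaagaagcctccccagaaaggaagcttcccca
Sc4mol: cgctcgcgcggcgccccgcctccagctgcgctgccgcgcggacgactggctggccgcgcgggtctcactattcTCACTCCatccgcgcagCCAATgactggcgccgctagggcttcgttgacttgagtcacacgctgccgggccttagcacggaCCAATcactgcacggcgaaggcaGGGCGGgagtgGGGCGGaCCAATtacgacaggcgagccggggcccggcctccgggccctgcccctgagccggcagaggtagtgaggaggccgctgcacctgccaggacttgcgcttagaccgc
Lss: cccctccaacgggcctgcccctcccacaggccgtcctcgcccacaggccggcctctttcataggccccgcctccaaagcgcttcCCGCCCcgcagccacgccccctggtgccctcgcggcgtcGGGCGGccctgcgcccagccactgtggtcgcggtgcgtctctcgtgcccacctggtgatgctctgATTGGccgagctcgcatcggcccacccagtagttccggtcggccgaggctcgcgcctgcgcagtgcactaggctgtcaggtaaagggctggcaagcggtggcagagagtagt
Srebf2: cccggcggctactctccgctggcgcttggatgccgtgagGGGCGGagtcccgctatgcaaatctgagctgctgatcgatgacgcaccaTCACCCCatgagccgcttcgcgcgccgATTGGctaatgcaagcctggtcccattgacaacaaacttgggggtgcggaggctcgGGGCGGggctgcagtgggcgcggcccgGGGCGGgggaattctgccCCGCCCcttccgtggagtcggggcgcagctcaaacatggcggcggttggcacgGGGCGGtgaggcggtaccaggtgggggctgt
Insig1: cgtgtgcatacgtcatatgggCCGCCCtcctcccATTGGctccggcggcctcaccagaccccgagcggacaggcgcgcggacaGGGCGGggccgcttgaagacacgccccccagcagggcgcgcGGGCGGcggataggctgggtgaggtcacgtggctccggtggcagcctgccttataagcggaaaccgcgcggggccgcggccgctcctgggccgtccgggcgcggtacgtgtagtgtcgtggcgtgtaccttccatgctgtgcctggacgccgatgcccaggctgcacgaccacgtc

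Idi1, Sc4mol, Lss and Srebf2 each hold the NF-Y box and the GC box, and so does Insig1. The sterol regulatory element core stands in the windows of Sc4mol and Srebf2 and not in those of Idi1, Lss and Insig1. Windows were found for 28 of the 33 symbols, and Fdps, Fdft1, Sqle, Stard4 and Abcg1 had none. Among these 28 members, 21 held CCAAT in at least 1 window and 23 held GGGCGG, against 41.1% and 38.2% of the 27025 genes with a window. TCACNCC stood in 6 of the 28, namely Acat2, Hmgcs1, Sc4mol, Srebf2, Insig2 and Nr1h3, against 17.6% of all genes. All 10 members of the sterol arm with a window held both CCAAT and GGGCGG. Of the 6 members with a window that were at least 1.5-fold higher in the Gata6-AS LNA library, 5 held CCAAT and 6 held GGGCGG, and of the 20 other measured members 15 and 16 did. CCAAT and GGGCGG thus stood in most members on both sides of 1.5-fold. TCACNCC stood in 2 of the 6 and in 2 of the 20, counts too small to set these groups apart. Fdps, Fdft1 and Sqle were also at least 1.5-fold higher but, without a window, are not among the 6. A match describes letters in a window and is not evidence of binding. The 27025 genes were not filtered by expression. Neither base composition nor expression was matched between members and other genes.

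**Figure D1:**
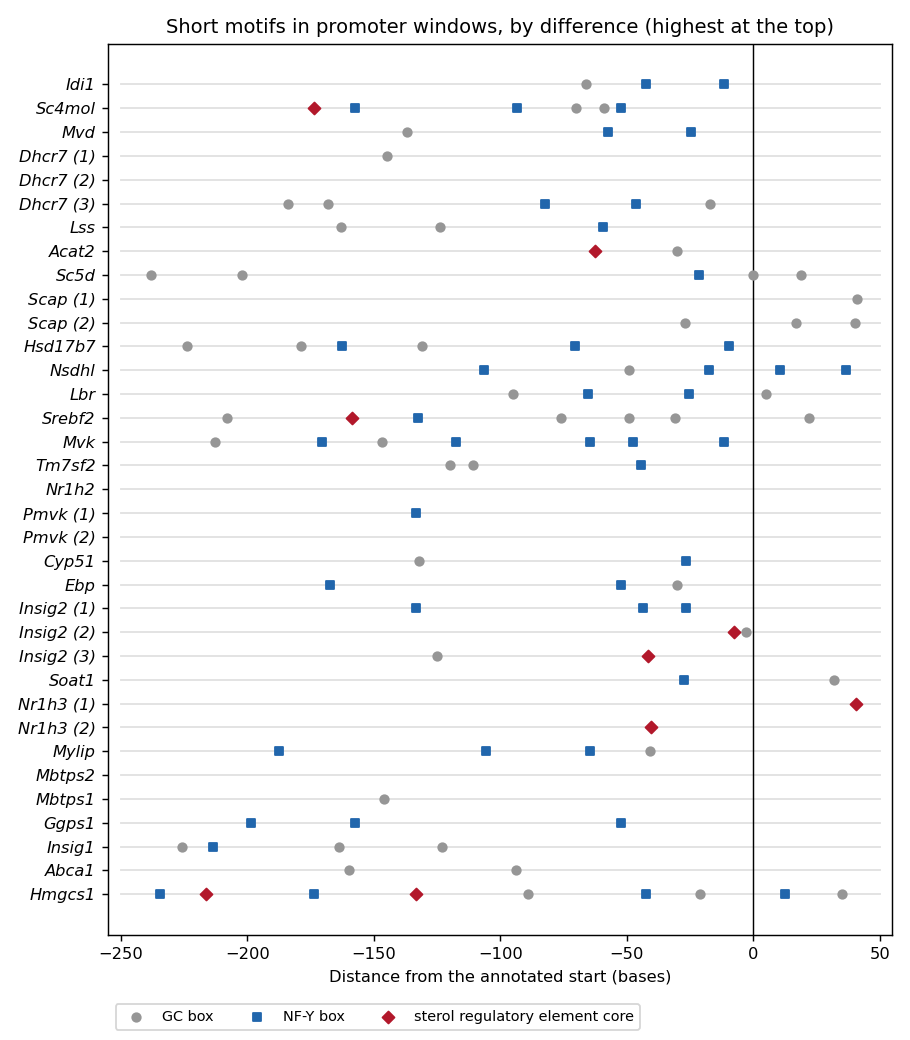
Positions of the 3 motifs in the promoter windows of 28 members, in bases from the annotated start (vertical line); rows run from the most positive difference at the top to the most negative, with Hmgcs1, which has no expression value, last, and a number in brackets marks a gene with several windows. Squares (NF-Y box) and circles (GC box) lie in rows at the top and in the middle alike, and diamonds (sterol regulatory element core) lie in 6 genes.

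The values are RPKM, reads normalised to a kilobase of gene and to 1000000 reads of the library, as the authors deposited them. The main measure is the difference of log2(RPKM + 1), Gata6-AS LNA minus control LNA, for genes whose 2 values averaged 1 RPKM or more, which 10869 genes and 30 of the 32 members did; this scale understates the change of low genes. Differences of at least 1.5-fold on this scale were counted, which is called the size rule here. Depth was inferred from the step size of the RPKM values of detected genes with a span under 3000 bp. It came to 1.23e+08 reads in the Gata6-AS LNA library and 1.04e+08 in the control library. Intervals given with a fold are exact (Clopper-Pearson) 95% intervals, computed from the least read numbers compatible with the RPKM of both libraries; they cover counting error only, not the variation between cultures, and PCR copies are not independent molecules. Gata6-AS, listed as 1010001N08Rik, stood at 5.83 RPKM in the Gata6-AS LNA library and 10.1 RPKM in the control library, and Gata6 at 55.7 and 81.9 RPKM in the same order of libraries; their annotated ends overlap on opposite strands, and the use of strand in counting is not stated. All 7 XEN markers looked at were above 1 RPKM, with summed levels of 549 RPKM in the Gata6-AS LNA library and 793 RPKM in the control library; 5 of them were lower and 2 higher in the Gata6-AS LNA library. Gata4 made up the largest share, at 246 RPKM in the Gata6-AS LNA library and 357 RPKM in the control library. Sox7, at 59.4 RPKM in the Gata6-AS LNA library and 145 RPKM in the control library, was past 2-fold as lower (0.409-fold, 0.402 to 0.416), and Dab2 was at 43.6 and 31.03 RPKM in that order (1.40-fold, 1.38 to 1.43); these 3 were named after their values were seen. Of 5 embryonic stem cell markers 1, Nanog, was measured (5.07 RPKM in the Gata6-AS LNA library, 4.61 RPKM in the control library), with Pou5f1 near 0 and Sox2 at 0 in both. The 4 trophoblast markers found in the table summed to 1.63 RPKM in the Gata6-AS LNA library and 0.984 RPKM in the control library. Cdx2 made up the largest share, at 1.19 and 0.653 RPKM in that order (1.82-fold, 1.495 to 2.215). Eomes was at 0.407 and 0.321 RPKM, and Elf5 at 0.0388 and 0.00986 RPKM, from at least 28 and 6 reads. Cdx2, Eomes and Elf5 were thus higher in the Gata6-AS LNA library, and Hand1 was at 0 in both. No trophoblast marker averaged 1 RPKM. The 6 fibroblast markers summed to 4.63 and 3.83 RPKM in that order, nearly all of it Pdgfrb, with Thy1, Col3a1 and Twist1 at 0 in both. The part of these markers in the differences below was not tested.

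Most enzymes of cholesterol synthesis stood higher in the Gata6-AS LNA library, while 3 of the 6 regulators lay above 0 and 3 below. Of 19 measured enzymes of both arms, 18 lay above 0 and 9 passed the 1.5-fold rule as higher: Fdps, Idi1, Mvd, Fdft1 and Acat2 of the mevalonate arm, and Sqle, Sc4mol, Dhcr7 and Lss of the sterol arm. Among all 10869 measured genes 58.0% lay above 0, 3.42% passed the size rule as higher and 1.95% as lower. With the median of all measured genes set to 0, those shares were 2.49% and 2.41%. No regulator and no gene of uptake and export passed the rule in either direction. At the 2-fold mark Fdps, Idi1 and Sqle remained, against 0.331% of all measured genes, and no member was 2-fold lower, against 0.451%. The median difference was 0.73 in the mevalonate arm, 0.37 in the sterol arm, -0.003 among the regulators and 0.03 among the genes of uptake and export, beside 0.05 over all measured genes. The gap between the arms depended on the pseudocount, since as a plain log2 ratio the medians were 0.75 in the mevalonate arm and 0.64 in the sterol arm. As a plain ratio of RPKM, a scale added after seeing the data, 13 members were at least 1.5-fold higher, the same 9 together with Hsd17b7, Sc5d, Scap and Stard4, against 6.02% of all measured genes. Hsd17b7, Lss and Idi1 are low genes, for which the pseudocount matters most.

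**Figure D2:**
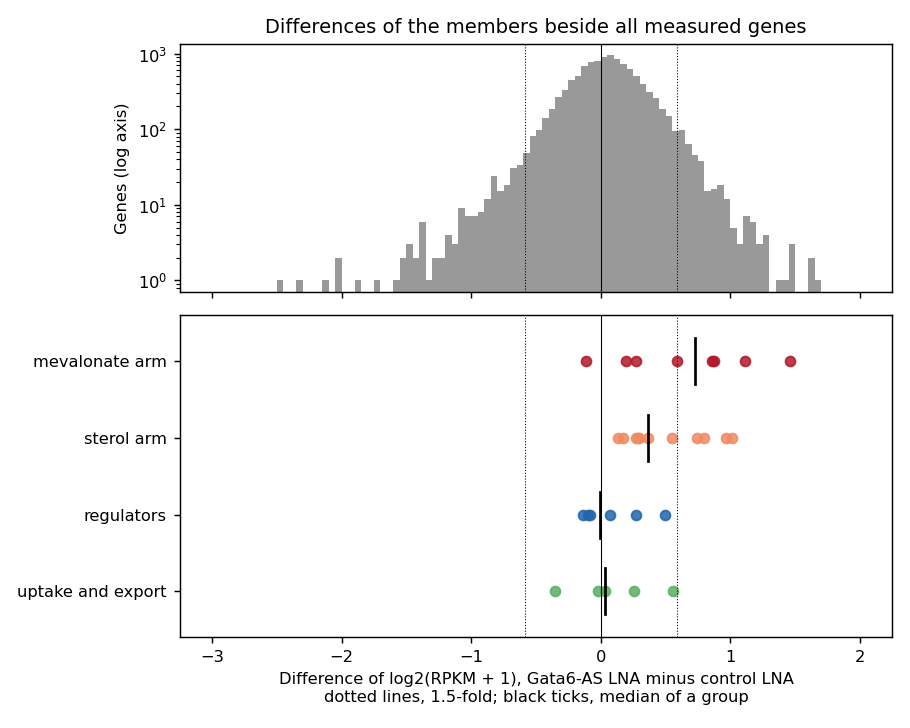
Differences of log2(RPKM + 1), Gata6-AS LNA minus control LNA, of all 10869 measured genes (top, number of genes on a log axis) and of the 30 measured members by group (bottom; points are genes, black ticks are medians). Of the enzymes, 9 lie right of the 1.5-fold line, and the regulators centre on 0.

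The mevalonate arm had its largest differences at Fdps and Idi1, neighbouring steps in the middle of the arm. Fdps, farnesyl diphosphate synthase, which joins isoprenoid units into the branch point of sterols, dolichols and prenyl groups, stood at 36.7 RPKM in the Gata6-AS LNA library and 12.7 RPKM in the control library. That is 2.89-fold (2.73 to 3.05) and a difference of 1.46, with 5 of the 10869 measured genes more positive. In mm9, the assembly of all positions printed from the expression table, its span is chromosome 3, 88897514 to 88905881, minus strand. Idi1, the isomerase that makes dimethylallyl diphosphate (chromosome 13, 8884852 to 8891641, plus strand), stood at 5.02 RPKM in the Gata6-AS LNA library and 1.78 RPKM in the control library, 2.82-fold (2.55 to 3.11). These were the genes with the highest folds of all members, and their intervals overlap.

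Mvd, the decarboxylase that yields isopentenyl diphosphate, stood at 11.3 RPKM in the Gata6-AS LNA library and 5.72 RPKM in the control library, 1.98-fold (1.84 to 2.13). Fdft1, squalene synthase and the first step committed to sterols, stood at 60.98 RPKM in the Gata6-AS LNA library and 33.1 RPKM in the control library, 1.84-fold (1.80 to 1.89). Acat2, a cytosolic thiolase that joins acetyl-CoA units at the entry of the pathway, stood at 22.1 RPKM in the Gata6-AS LNA library and 14.3 RPKM in the control library, 1.54-fold (1.48 to 1.60). Acat2 lay just inside the size rule, at a difference of 0.59, while Stard4 (0.56) and Sc5d (0.55) lay just outside it.

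The kinases of the arm differed less. Mvk, mevalonate kinase, stood at 4.20 RPKM in the Gata6-AS LNA library and 3.32 RPKM in the control library, 1.27-fold (1.16 to 1.38). Pmvk, phosphomevalonate kinase, stood at 31.8 RPKM in the Gata6-AS LNA library and 27.7 RPKM in the control library, 1.15-fold (1.11 to 1.20). Ggps1, which extends farnesyl diphosphate for protein prenylation and so leads away from sterols, was the enzyme on the other side of 0, at 7.57 RPKM in the Gata6-AS LNA library and 8.26 RPKM in the control library (0.916-fold, 0.862 to 0.973). Summed over the arm, 179.8 RPKM in the Gata6-AS LNA library stood against 107 RPKM in the control library, or 168% of control.

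In the sterol arm all 11 enzymes lay above 0, from 1.11-fold to 2.48-fold. Sqle, squalene epoxidase, the oxygen-requiring step that is often limiting (chromosome 15, 59146632 to 59162747, plus strand), stood at 5.45 RPKM in the Gata6-AS LNA library and 2.20 RPKM in the control library, 2.48-fold (2.32 to 2.64). Sc4mol, now called Msmo1, a methyl sterol oxidase, stood at 5.50 RPKM in the Gata6-AS LNA library and 2.33 RPKM in the control library, 2.35-fold (2.22 to 2.50). Lss, lanosterol synthase, which closes the rings, stood at 2.31 RPKM in the Gata6-AS LNA library and 0.982 RPKM in the control library, 2.35-fold (2.20 to 2.52). On the log2(RPKM + 1) scale the difference of Lss was 0.74 and that of Sc4mol 0.96, although their folds agree within counting error, because Lss is the lower gene. Dhcr7, the reductase of the last step of one branch, stood at 7.91 RPKM in the Gata6-AS LNA library and 4.14 RPKM in the control library, 1.91-fold (1.80 to 2.03).

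A further pair of sterol enzymes passed 1.5-fold as a plain ratio but not on the main scale. Sc5d, sterol desaturase, stood at 7.96 RPKM in the Gata6-AS LNA library and 5.11 RPKM in the control library, 1.56-fold (1.38 to 1.76). Hsd17b7, a sterol ketoreductase, was the lowest measured member, at 1.40 RPKM in the Gata6-AS LNA library and 0.859 RPKM in the control library, 1.63-fold (1.38 to 1.92) from at least 438 and 227 reads. Computed from these least read numbers, its interval is the widest of the arm relative to its value, and spans 1.5-fold. The true read numbers may be larger, which would narrow the interval.

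The other sterol enzymes were between 1.11-fold and 1.27-fold. Nsdhl, the decarboxylating dehydrogenase that works with Sc4mol and Hsd17b7 to remove methyl groups, stood at 6.40 RPKM in the Gata6-AS LNA library and 5.04 RPKM in the control library (1.27-fold, 1.19 to 1.36). Cyp51, the lanosterol demethylase, stood at 11.7 RPKM in the Gata6-AS LNA library and 10.3 RPKM in the control library (1.14-fold, 1.08 to 1.20), next to Ebp, the sterol isomerase, at 12.3 and 11.1 RPKM in that order (1.11-fold, 1.03 to 1.19). The 3 genes that work together in demethylation thus covered a wide range, with the interval of Sc4mol above those of Nsdhl and Hsd17b7. Tm7sf2 and Lbr encode sterol reductases of the same step, and Lbr is also a receptor of the inner nuclear membrane for lamin B. Tm7sf2 stood at 4.55 RPKM in the Gata6-AS LNA library and 3.61 RPKM in the control library (1.26-fold, 1.17 to 1.35), and Lbr at 23.4 and 19.02 RPKM in that order (1.23-fold, 1.19 to 1.27). Their folds overlap within counting error while Lbr had the higher level in both libraries. Over the sterol arm the sum was 88.9 RPKM in the Gata6-AS LNA library and 64.8 RPKM in the control library, or 137% of control. Such sums weigh genes by their level. The median percentage of control over single genes was 156% in the sterol arm and 169% in the mevalonate arm.

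**Figure D3:**
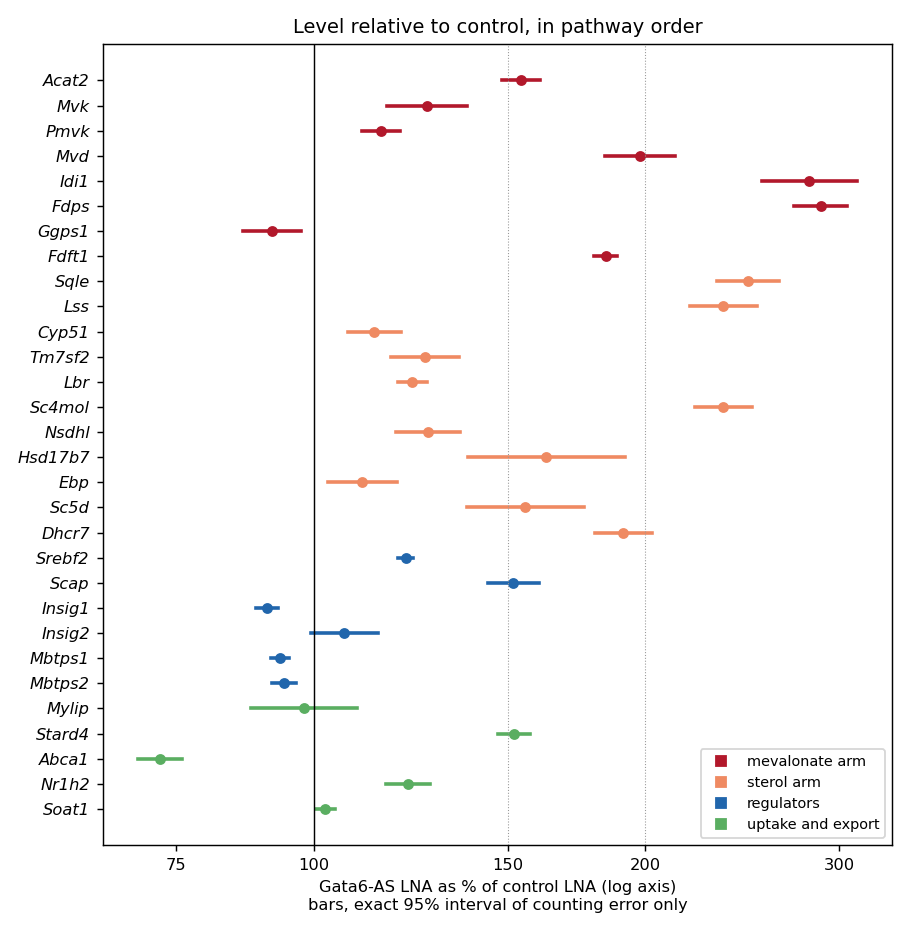
Level in the Gata6-AS LNA library as a percentage of the control library (log axis) for the 30 measured members in pathway order, with exact 95% intervals of counting error only; dotted lines mark 1.5-fold and 2-fold. Fdps and Idi1 lie furthest right, at 289% and 282%, and Abca1 furthest left, at 72.6%.

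**Figure D4:**
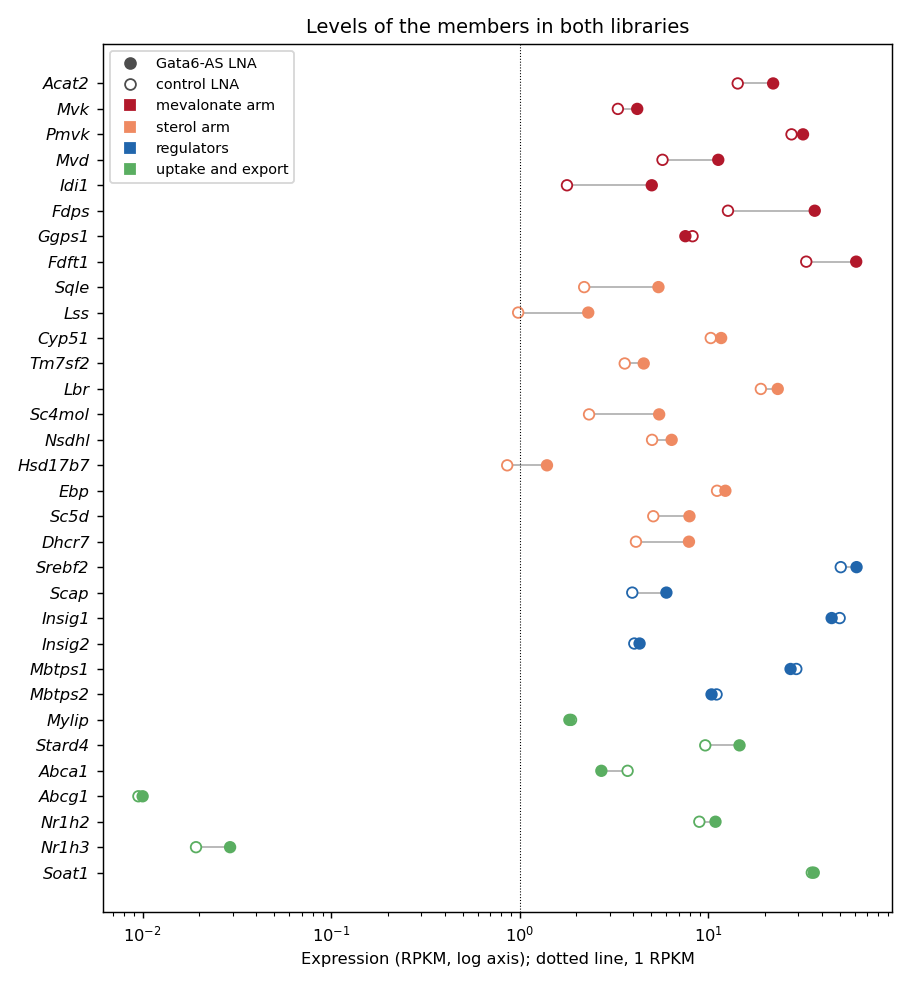
RPKM of the 32 members found in the table (log axis), with filled points for the Gata6-AS LNA library and open points for the control library, coloured by group; a dotted line marks 1 RPKM. Filled points lie right of open ones for 18 of the 19 enzymes, and Abcg1 and Nr1h3 lie near 0 in both libraries.

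Among the regulators, Srebf2, which encodes SREBP2, had the highest level of all members, at 61.2 RPKM in the Gata6-AS LNA library and 50.5 RPKM in the control library, 1.21-fold (1.19 to 1.23). Scap, the escort of SREBP2, had the most positive difference of the regulators, at 6.004 RPKM in the Gata6-AS LNA library and 3.96 RPKM in the control library (1.52-fold, 1.44 to 1.60; difference 0.50). It spans an antisense gene, 5830462I19Rik, which itself stood at 1.70 RPKM in the Gata6-AS LNA library and 1.11 RPKM in the control library, and without strand the reads of both cannot be told apart. Insig1, whose product holds SCAP in the endoplasmic reticulum and whose gene is itself a known SREBP2 target, was on the other side of 0 from most enzymes, at 45.2 RPKM in the Gata6-AS LNA library and 49.8 RPKM in the control library, 0.907-fold (0.886 to 0.928). Of all measured genes, 22.6% had a more negative difference than Insig1. Its paralogue Insig2 stood at 4.33 RPKM in the Gata6-AS LNA library and 4.06 RPKM in the control library, with an interval that holds no difference (0.995 to 1.14). The proteases that free SREBP2 in the Golgi were close to the control level and slightly below it. Mbtps1 stood at 27.4 RPKM in the Gata6-AS LNA library and 29.3 RPKM in the control library (0.932-fold, 0.915 to 0.9499), and Mbtps2 at 10.4 and 11.1 RPKM in that order (0.940-fold, 0.917 to 0.964). The sum over the regulators was 154.5 RPKM in the Gata6-AS LNA library and 148.7 RPKM in the control library, or 104% of control.

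Genes of uptake, storage and export went in different directions. Stard4, a soluble carrier that moves cholesterol between membranes and is a known SREBP2 target, stood at 14.7 RPKM in the Gata6-AS LNA library and 9.65 RPKM in the control library, 1.52-fold (1.47 to 1.57). Abca1, which loads cholesterol onto apolipoproteins at the cell surface and is a known LXR target, had the most negative difference of all members, at 2.71 RPKM in the Gata6-AS LNA library and 3.74 RPKM in the control library, 0.726-fold (0.693 to 0.760; difference -0.35). Of all measured genes 6.85% were more negative than Abca1. Mylip, a ubiquitin ligase that marks lipoprotein receptors for destruction and another known LXR target, stood at 1.84 RPKM in the Gata6-AS LNA library and 1.87 RPKM in the control library, with an interval that holds no difference (0.877 to 1.10). Soat1, which stores cholesterol as esters, stood at 36.3 RPKM in the Gata6-AS LNA library and 35.4 RPKM in the control library (1.02-fold, 1.004 to 1.045). The LXR gene expressed in these cells was Nr1h2, at 10.9 RPKM in the Gata6-AS LNA library and 8.98 RPKM in the control library (1.22-fold, 1.16 to 1.28). Nr1h3, the other LXR gene, stood at 0.0291 RPKM in the Gata6-AS LNA library and 0.0192 RPKM in the control library, from at least 9 and 5 reads. Abcg1, a second exporter, stood at 0.010 and 0.0095 RPKM in that order, from at least 5 and 4 reads. At those depths the intervals, 0.456 to 5.76 for Nr1h3 and 0.227 to 5.31 for Abcg1, allow large differences either way.

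Counting error was small beside most of these differences, and it is not the spread that matters between cultures. Of the 30 measured members, the counting interval lay above the control level for 23, below it for 5 and across it for 2. The same held above for 44.8% and below for 31.3% of all measured genes with reads found, so at this depth an interval clear of the control level is common and says little by itself. The authors' deposited table, which lists genes with a p below a limit from the same libraries and is no independent check, holds 13 members, 12 as higher and Abca1 as lower. Of all measured genes 6.23% are listed there as higher and 5.71% as lower. The smallest p-values of members in the authors' deposited table were those of Fdps (log2 difference 1.47, p = 1.15e-05), Sqle (1.24, p = 3.59e-05) and Sc4mol (1.17, p = 0.000304). In the authors' deposited table Abca1 had a log2 difference of -0.51 (p = 0.0627).

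Some members share sequence with other genes, and how multiply mapped reads were treated is not stated. Of the distinct 50-base stretches in GENCODE M21 transcripts of Acat2, 39.1% also stand in its neighbour Acat3, which stood at 36.7 RPKM in the Gata6-AS LNA library and 32.2 RPKM in the control library. The value of Acat2 is uncertain to that extent. The shared portion was 28.9% for Mbtps2 (mostly with Yy2, which lies within it), 26.2% for Fdps, 17.7% for Idi1, 9.87% for Tm7sf2 and 9.4% for Fdft1, and below 6% for the rest. The 3′ ends of Fdft1 and Ctsb overlap by 769 bases on opposite strands, and Ctsb, a lysosomal protease, stood at 232 RPKM in the Gata6-AS LNA library and 292 RPKM in the control library, so it differed in the other direction. Mvd lies within the span of Gm20388 on the opposite strand, which stood at 53.1 RPKM in the Gata6-AS LNA library and 54.0 RPKM in the control library. Ggps1 overlaps Arid4b on the opposite strand by 170 bases. Arid4b stood at 2.37 RPKM in the Gata6-AS LNA library and 3.04 RPKM in the control library, and was thus lower, as Ggps1 was. For some members at least, the gene lengths behind the RPKM values appear to be merged over isoforms. For 10 of 32 members the least length that gave whole reads equalled the merged exons of GENCODE M21 exactly, among them Lss at 10787 bases and Sqle at 5546 bases. For the other members the least length did not equal it. Those of Hsd17b7 (2552 bases) and Ebp (1155 bases) divide their merged exons (5104 and 2310 bases) exactly, so the merged length fits these members too. The annotation used is not stated. Where lengths are merged, levels of different genes are comparable only per merged length. That lowers the RPKM of genes with long rare isoforms in both libraries alike.

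Genes next to the pathway did not all follow the enzymes. Their counts stand beside 3.42% higher, 1.95% lower, 58.0% above 0 and a median of 0.05 over all measured genes. Of 14 genes that use farnesyl or geranylgeranyl diphosphate for dolichol, ubiquinone or protein prenylation, 13 were measured, none passed 1.5-fold in either direction, and the median difference was -0.03. Of 24 other genes of sterol handling, 22 were measured, with 4 past the size rule as higher, 2 as lower and a median of 0.15. Among the 4, Tmem97, a sterol-responsive membrane protein, was higher, at 47.4 RPKM in the Gata6-AS LNA library and 24.7 RPKM in the control library (1.91-fold, 1.84 to 1.99), and so was the lipoprotein receptor gene Lrp8, at 3.47 and 1.57 RPKM in that order (2.21-fold, 2.05 to 2.40). The lipoprotein receptor gene Vldlr was lower, at 6.12 RPKM in the Gata6-AS LNA library and 13.3 RPKM in the control library (0.459-fold, 0.437 to 0.482). Of 11 fatty acid genes known to be under SREBP control, all were measured, 9 lay above 0, 2 passed the size rule as higher and 1 as lower, with a median of 0.34. The desaturase gene Fads2 stood at 12.4 RPKM in the Gata6-AS LNA library and 7.204 RPKM in the control library (1.72-fold, 1.60 to 1.85), and the elongase gene Elovl6 at 2.86 and 1.46 RPKM in that order (1.96-fold, 1.812 to 2.121). Lpin1, a phosphatidate phosphatase, was lower, at 10.4 RPKM in the Gata6-AS LNA library and 21.04 RPKM in the control library (0.494-fold, 0.480 to 0.509). These lists were chosen with earlier results of these data known, and no test sets them apart from other genes.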

How the data were processed

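RNA of 2 XEN cell cultures, 1 library per group, was compared. The authors deposited RPKM values for 26127 genes, per the file headers. The submitters' processing notes name TopHat and mm9. Versions, the counting tool, the annotation and the use of strand are not stated. The authors also deposited log2 values, log2 differences and p-values of 2099 genes, from a test that is not stated. Rows were joined by position, which matched 2099. Members were matched by symbol, with Sc4mol for Msmo1. The members and lists were chosen with earlier results of these data known; all members are named, and of each further list up to 4 genes past 1.5-fold. A few genes of these lists are counted and not reported singly here.

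Depth was found from detected genes with a span under 3000 bp. At the depth found, RPKM times span gave whole reads for 910 of 2211 such genes in the Gata6-AS LNA library. In the control library it did so for 849 of 2094. Least reads were sought over lengths below 30000 bp, with a tolerance of 3e-07 of the reads plus 0.0002. Promoters came from a RefSeq table (GRCm38.p6), and shared stretches from GENCODE M21. The steps across all genes were tested on simulated data. Python 3.11.15, NumPy 2.4.6, pandas 2.3.3, SciPy 1.17.1 and Matplotlib 3.10.9 were used. Alternatives were pseudocounts of 0.1 and 0.5 RPKM, a median of 0, a sum of 1000000 per library, no filter, a mean of at least 5 RPKM, and a plain ratio added after seeing the data.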

Additional observations from a re-analysis of the deposited data

How the results depend on the processing

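No paired analysis was possible because each group had 1 library, and no library could be left out. On the log2(RPKM + 1) scale 9 members were at least 1.5-fold higher. The share of all genes past the same mark was 3.42%, and brackets below give members and that share per setting. The same 9 were found with a pseudocount of 0.5 RPKM (10, 4.32%) and with each library scaled to 1000000 summed RPKM (10, 4.51%). They were also found with no filter (9, 1.44%), a pseudocount of 0.1 RPKM (13, 5.7%) and the plain ratio (13, 6.02%). A smaller or absent pseudocount enlarges every difference, and dropping the filter removes no gene, so those settings could not lose a member. With the median of all measured genes set to 0, Acat2 was lost, which left 8 (2.49% of all genes), and Soat1 was the measured member that changed sign. Above a mean of 5 RPKM 5 of 19 members passed, beside 3.61% of all genes above that mean. Idi1, Lss, Sc4mol and Sqle were left out because their means are lower. Of the 5 that passed, 1 was in the sterol arm, against 4 on the main setting. The median of the sterol arm, 0.37, was 0.63 with a pseudocount of 0.1 RPKM, 0.54 with scaled libraries and 0.64 as a plain ratio. The regulators and the genes of uptake and export had 1 member each past 1.5-fold with a pseudocount of 0.1 RPKM and 1 each as a plain ratio, Scap and Stard4. Above a mean of 5 RPKM the median of the regulators was -0.090 and that of uptake and export 0.26, from 4 and 3 members. With the median of all genes set to 0, that of uptake and export was -0.015. The causes of the moves in these medians were not tested beyond the settings themselves. No setting reversed a member past the size rule, which was fixed in advance and is no check. A change of pseudocount or filter keeps the sign of a difference. The shifts from centring (0.05) and from scaling were small beside the size rule. Depth limits Abcg1 and Nr1h3, whose levels rest on few reads. All members lack replicate cultures.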
